A study of Canis lupus familiaris with 33 samples.

Results

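Among the peak lists of 11 beagle tissues, 14565 autosomal regions had a peak in cerebellum and in ovary and in none of the other 9 tissues. They were chosen by peak presence in the lists: all peaks on autosomes 1 to 38 were merged into 450791 union regions wherever they overlapped by 1 base or more, and a region was kept when cerebellum and ovary were its only lists. The regions kept made up 3.23% of all autosomal union regions (95% Wilson interval 3.18% to 3.28%, counting error only) and covered 4.56 Mb, or 1.66% of the bases in union regions. Because the presence and absence of peaks in these lists chose the regions, their number and the fold and width of those peaks are given as a description with no test.

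The study mapped DNA methylation in tissues of healthy adult beagles with MBD-seq. The genomic DNA was sheared, fragments were bound to beads through a methyl-CpG-binding domain, and only the fragments released at the highest salt were sequenced. It comprised 33 libraries, of which 22 were capture (MBD) libraries, 2 per tissue, and 11 were input libraries, 1 per tissue. The cerebellum MBD libraries were titled MBD_CL_679 (labelled female) and MBD_CL_jj8 (labelled male), and the cerebellum input came from jj8. The ovary MBD libraries were titled MBD_OV_244 and MBD_OV_679 (both labelled female), and the ovary input shared its identifier with MBD_OV_679. The labels name 3 dogs, 1 of them male, but the titles carry 4 animal identifiers, and jj8 is labelled male in its 7 MBD libraries and female in its 7 input libraries. The other tissues were cerebrum, colon, kidney, liver, lung, mammary gland, pancreas, spleen and stomach. No treatment before euthanasia, genotype or age in years is given for the animals. Both MBD libraries of a tissue carry 1 peak list in the labels, so no spread between animals could be computed.

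Methylated cytosines in mammalian DNA lie mostly in CpG dinucleotides, where DNA methyltransferases set the mark and copy it after replication. Most CpGs of the genome are methylated in every adult tissue, while enhancers and some promoters lose or gain the mark as cell types form. Capture by a methyl-CpG-binding domain grows with the number of methylated CpGs on a fragment, so a weak peak can come from few CpGs, from methylation in part of the cells, or from both, which bulk tissue does not tell apart. The cerebellum is dominated by small granule neurons. The ovary is a mixture of stroma, vessels and follicles, in which germ cells are a minority.

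Cerebellum and ovary had the longest lists of the series. The cerebellum list held 359065 peaks and the ovary list 370761, against 260977 to 311374 in the other 9 lists. On autosomes these peaks fell in 311256 union regions for cerebellum and 334440 for ovary. The regions of cerebellum and ovary alone were 4.68% of the former (95% Wilson interval 4.61% to 4.75%) and 4.36% of the latter (4.29% to 4.42%). The number of reads behind each list is unknown, so list length cannot be told apart from a difference in depth. The shortest peak was 188 bases long in the cerebellum list and 218 bases in the ovary list, and the 11 lists ranged from 175 to 218 bases.

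Of the 45461 autosomal regions found in exactly 2 lists, 32.0% (95% Wilson interval 31.6% to 32.5%) were in cerebellum and ovary. This pair ranked first among the 55 pairs of tissues. It was 3.32 times as frequent as the next pair, cerebellum and cerebrum, the brain tissues of the series, with 4385 regions. Kidney and ovary followed with 3718, cerebrum and ovary with 3108, and cerebellum and kidney with 2595. The median pair had 232 regions, and colon and pancreas had the fewest, 35. The pair thus stood apart by number, and every one of the 4 pairs behind it contained either cerebellum or ovary.

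**Figure D1:**
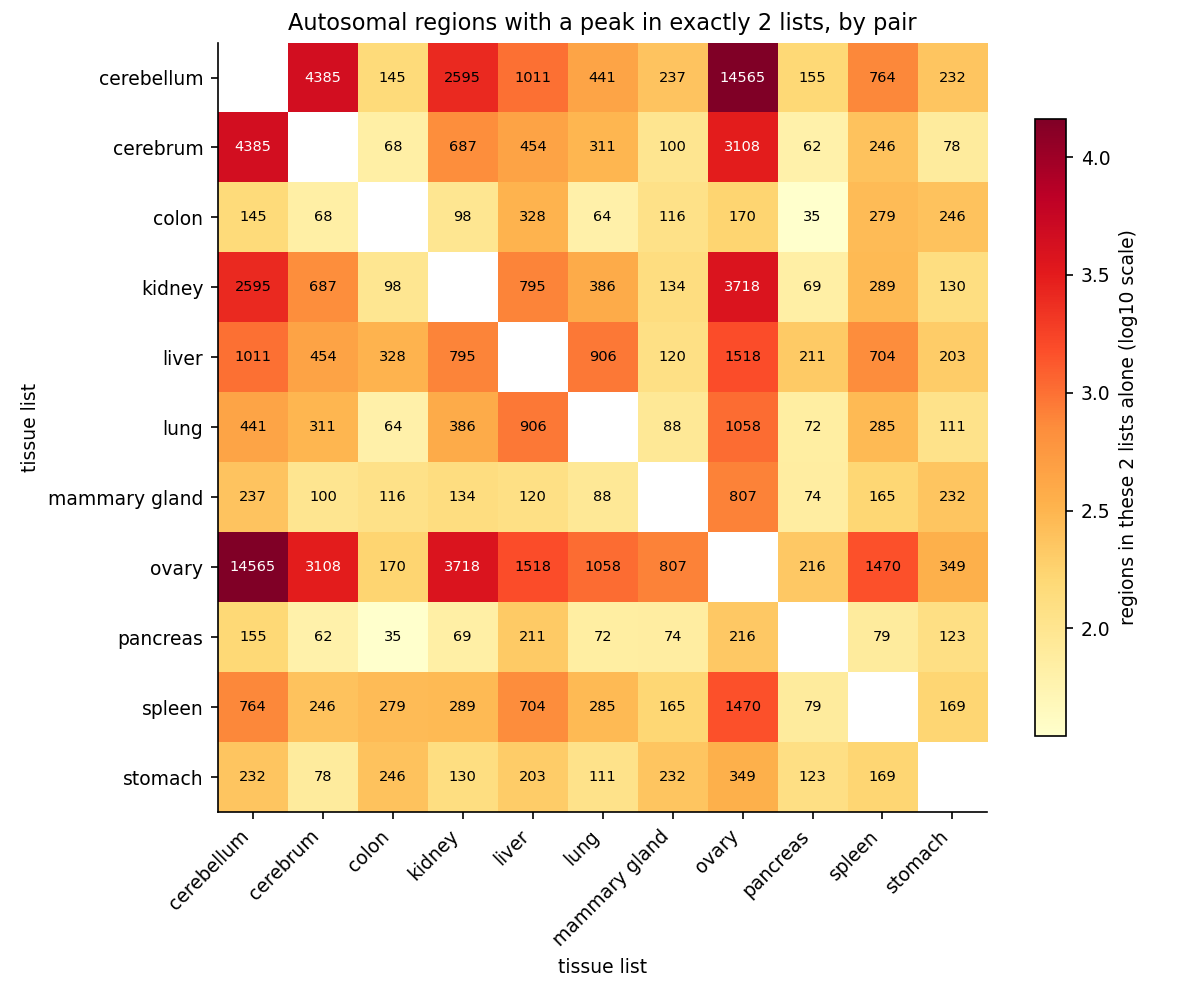
Number of autosomal regions with a peak in exactly 2 lists for each of the 55 pairs of tissues; both axes list the tissues, each cell gives the count, and colour follows its log10. The cell of cerebellum and ovary holds 14565 regions, against 4385 in the next pair, cerebellum and cerebrum.

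The number of regions was smaller when fewer peaks were kept. With equal list sizes, for which the strongest peaks of each list up to the length of the colon list were kept, the regions numbered 4794 and were 1.59 times as many as those of cerebellum and cerebrum. With the upper 50% of every list by fold there were 7914 regions, 2.49 times the next pair. In both settings cerebellum and ovary remained first among the pairs. When cerebellum and ovary alone were restricted to the upper 50% of their lists while the other 9 lists stayed whole, 290 regions were left and the pair ranked 28. As a share of the union regions of the setting, the regions were 1.27% with equal list sizes and 2.96% with the upper 50% of every list. The share was 0.0761% with cerebellum and ovary alone restricted, against 3.23% with all peaks. Length and fold threshold change together in these settings, so their parts in the number cannot be told apart.

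Fold was read as the deposited signal value of the strongest peak of a list in the region, divided by the median of all peaks of that list (relative fold). The median of the list was 6.76 in cerebellum and 6.53 in ovary. In the regions of cerebellum and ovary alone the cerebellum fold had a median of 4.81. Its relative fold ran from 0.268 to 2.03, with a median of 0.712 (quartiles 0.591 and 0.855). The ovary fold had a median of 4.67, and its relative fold ran from 0.288 to 1.73 with a median of 0.715 (quartiles 0.615 and 0.841). Both lists were therefore at about the same level below their medians. With the upper 50% of every list by fold, which removes the weak peaks, the medians were 1.23 and 1.19. The median region stood at percentile 24.5 of the cerebellum list and percentile 20.4 of the ovary list by fold.

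A cerebellum fold above the list median was found in 1604 regions, or 11.0%, where 50.8% of all autosomal regions with a cerebellum peak had one. The ovary fold was above its list median in 1353 regions, or 9.29%, where 50.1% of all autosomal regions with an ovary peak had one. Both folds were above the median in 289 regions (1.98%), neither was in 11897 (81.7%), the cerebellum fold alone was in 1315, and the ovary fold alone in 1064. Of the 241202 autosomal regions with both peaks, both folds were above the median in 44.0%, neither in 24.2%, the cerebellum fold alone in 16.3% and the ovary fold alone in 15.5%. Since absence of a peak in the other 9 lists chose the regions, nothing is read from these shares. The median −log10 q-value was 10.4 in cerebellum (quartiles 7.36 and 14.4) and 10.4 in ovary (quartiles 7.88 and 14.2). Over all autosomal regions with a peak of the list it was 20.0 in cerebellum and 19.6 in ovary. The typical peak was thus weak for its list both by fold and by q-value. The lowest −log10 q-value among the regions was 1.04.

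**Figure D2:**
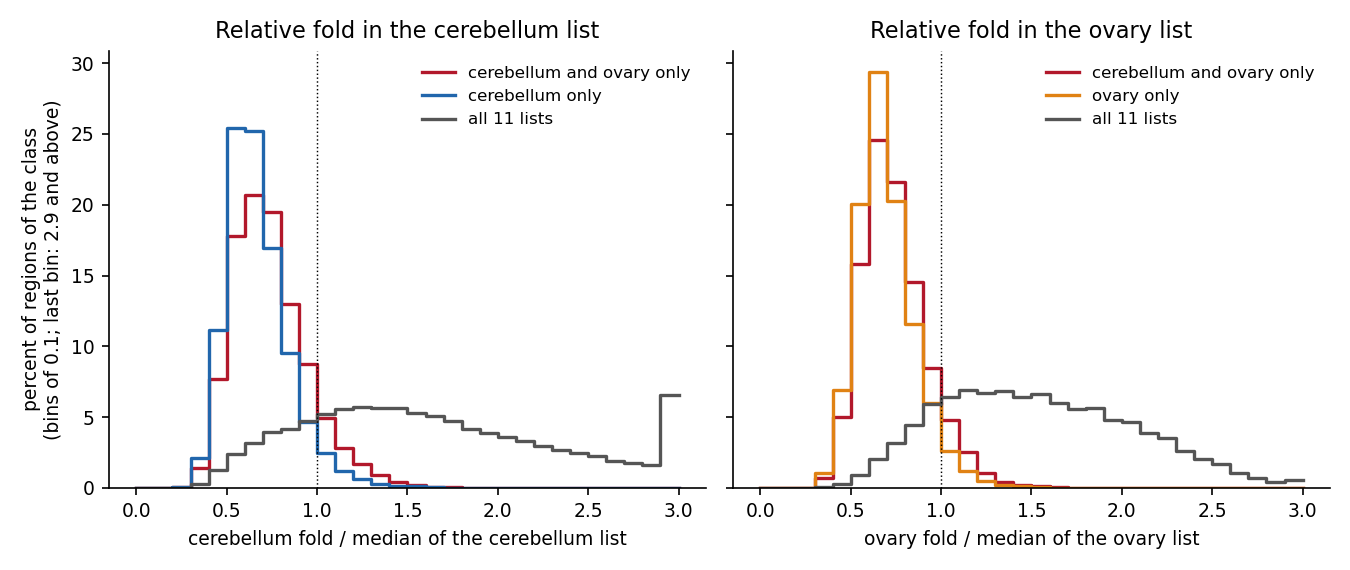
Distribution of the relative fold (fold divided by the median of its list, x axis) in the cerebellum list (left) and the ovary list (right), as percent of the regions of each class (y axis). Regions of cerebellum and ovary alone have medians of 0.712 and 0.715, close to regions of 1 list and below regions of all 11 lists.

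Regions found in 1 list alone were weaker still. The 35015 regions of cerebellum alone had a median relative fold of 0.641 (order-statistic 95% interval of the median 0.638 to 0.645), and the 26412 regions of ovary alone one of 0.672 (0.670 to 0.676). The interval was 0.708 to 0.715 for cerebellum and 0.714 to 0.716 for ovary in the regions of both. These intervals cover the spread over regions within 1 list and not the spread between animals. In the pairs with cerebrum, cerebellum had a median of 0.747 and ovary one of 0.728, so regions of either tissue shared with cerebrum alone had slightly higher folds there.

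In those pairs the partner was the weaker side. Cerebrum had a median relative fold of 0.623 in the regions of cerebellum and cerebrum alone and of 0.615 in the regions of cerebrum and ovary alone, and kidney one of 0.647 in the regions of kidney and ovary alone. In the regions of cerebellum and ovary alone the sides had nearly the same median. The log2 ratio of the relative fold in cerebellum to that in ovary had a median of −0.01 (quartiles −0.32 and 0.29). In 476 regions (3.27%) the relative folds were more than 2-fold apart, as they were in 10.3% of all autosomal regions with both peaks. The regions chosen have a narrow range of weak folds, so nothing is read from the difference between these shares.

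Across the 14565 regions the relative folds of both lists were weakly related, with a Spearman's rho of 0.212. Both lists of a point share the sequence of the region and 1 animal, and the range of folds is narrow in these regions. Over the 226637 regions that had both peaks and at least 1 other list, rho was 0.510, and over the 13445 regions with both and exactly 1 other list it was 0.189. These correlations are across regions, which are not independent, and carry no p-value.

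The number of lists in a region went with its fold. Regions with both cerebellum and ovary peaks numbered 241202, of which 6.04% had no other list. Their number fell from 14565 in 2 lists to 9950 in 6 lists and rose to 121528 in all 11 lists. The median relative fold rose at every step in both lists, from 0.712 to 1.55 in cerebellum and from 0.715 to 1.5 in ovary. Among regions in exactly 3 lists, 42.4% had both a cerebellum and an ovary peak, and among regions in exactly 9 lists 58.5% did. The share that holds a pair of lists grows with the number of lists by construction, so no trend is read from these shares.

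**Figure D3:**
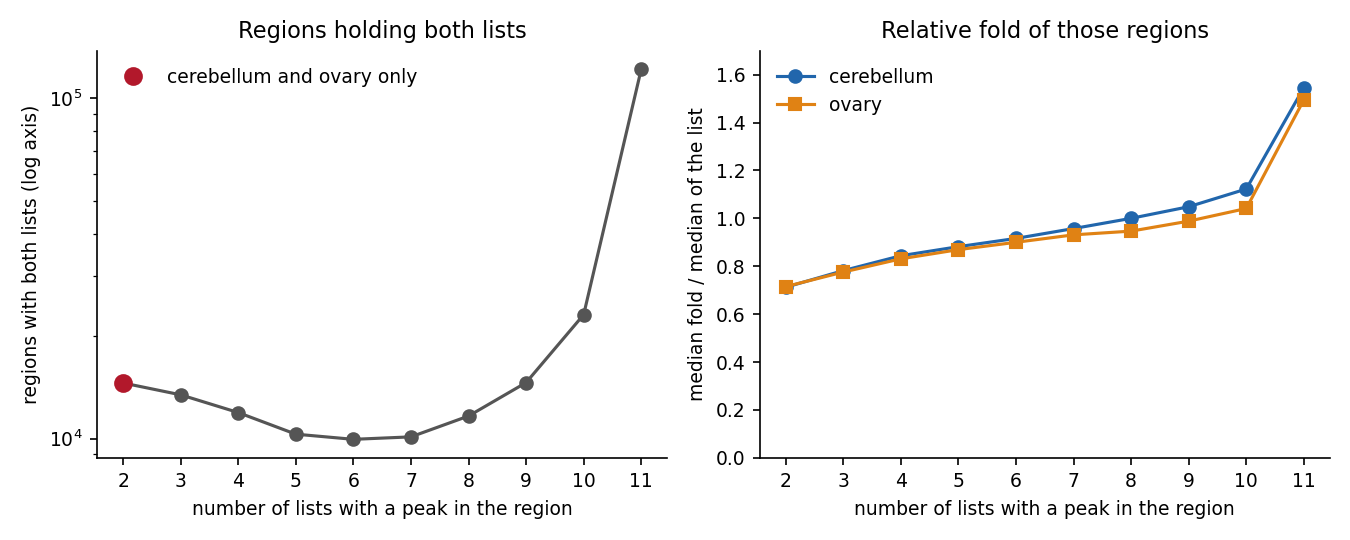
Regions that hold both a cerebellum and an ovary peak, by the number of lists with a peak in the region (x axis): their number on a log axis (left) and the median fold divided by the list median (right). The red point marks the 14565 regions with no other list, and the relative fold rises from 0.712 and 0.715 there to 1.55 and 1.5 in regions of all 11 lists.

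When the regions of each list were taken in 10 equal groups by fold, the regions of cerebellum and ovary alone were 10.2% of the weakest group of cerebellum regions and 11.5% of the weakest group of ovary regions. Their share fell at every step. It was 0.0482% (15 regions) in the second strongest group of cerebellum and 0.0688% (23 regions) in that of ovary, and no such region lay in the strongest group of either list. There, 97.2% of cerebellum regions and 94.2% of ovary regions had a peak in all 11 lists.

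Weak peaks were also followed across lists without regard to how many lists a region had. Of the 153102 cerebellum regions at or under the list median, 62.5% had an ovary peak, 52.6% a cerebrum peak and 49.8% a kidney peak, and colon had the lowest share, 32.3%. Of the 166788 such ovary regions, 58.5% had a cerebellum peak, 54.2% a cerebrum peak and 54.1% a kidney peak. Over all union regions, ovary peaks lay in 74.2%, cerebellum peaks in 69.0% and cerebrum peaks in 62.0%, which is the same order. The weak regions of cerebrum and kidney had an ovary peak more often than those of cerebellum, in 77.9% and 78.6%, and a cerebellum peak more often than those of ovary, in 69.9% and 67.7%. A high share of weak peaks found again in ovary was thus not limited to cerebellum.

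The regions were short. Their width had a median of 287 bases (quartiles 263 and 323) and ranged from 218 to 1257 bases, and 769 regions (5.28%) were 500 bases or wider. Regions of cerebellum alone had a median width of 234 bases, those of ovary alone 260 bases, those of cerebellum and cerebrum alone 292 bases, and those of all 11 lists 798 bases. A region merged from more lists is wider by construction. In 14530 regions (99.8%) each list contributed 1 peak, with a median width of 250 bases in cerebellum and 270 bases in ovary.

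The position of the summit, the base of highest signal within a peak, was not used to choose the regions. In the 14530 regions with 1 peak of each list, the cerebellum and ovary summits lay a median of 19 bases apart (quartiles 8 and 35; order-statistic 95% interval of the median 18 to 19). They were within 50 bases in 87.2% and over 150 bases apart in 2.57%. The peaks overlapped by at least 50% of the shorter one in 99.8% of regions, and by under 50 bases in 6 regions. Nearly all of these regions thus rested on peaks at the same place and not on a shared edge. The median distance was 22 bases between cerebellum and cerebrum summits in the regions of those tissues alone, 19 bases in the pair of kidney and ovary, and 23 bases in that of cerebrum and ovary. It was 19 bases between cerebellum and ovary where 1 other list was present as well. Peaks this short leave little room for distant summits, and the agreement of summits was of the same order in all pairs compared.

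The regions at the strong end were named by the smaller of their relative folds, and they are given as positions because genes at these sites were not analysed here. Coordinates are those of the deposited lists, whose build is CanFam3.1 per the submitters' processing notes, counted from 1. The first was chr27:23554609-23554942, 334 bases wide, with a cerebellum fold of 10.3 and an ovary fold of 11.1, or 1.52 and 1.69 times the list medians. Its summits were 1 base apart, and the nearest region of all 11 lists was 17996 bases away. The second was chr9:21864032-21864394, with a cerebellum fold of 11.0 and an ovary fold of 9.33. The highest cerebellum fold among the 10 belonged to chr1:78178293-78178615, 13.6 or 2.01 times the median, beside an ovary fold of 9.13.

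The other 7 of the 10 lay at chr29:9558556-9558871, chr6:43963710-43964031, chr25:39952439-39953209, chr25:46374283-46374597, chr36:24185717-24186016, chr11:67540070-67540411 and chr26:32510453-32510768. The 10 regions were spread over 9 chromosomes. They ranged from 1.33 to 2.01 in relative cerebellum fold and from 1.32 to 1.69 in relative ovary fold. They stood between percentile 69.0 and percentile 88.6 of the cerebellum list and between 71.2 and 84.9 of the ovary list. Their −log10 q-values were 28.7 to 52.7 in cerebellum and 28.5 to 40.2 in ovary. All summits were 1 to 38 bases apart, and the distance to the nearest region of all 11 lists ran from 143 to 35432 bases. Even the strongest regions of this kind were thus moderate peaks of their lists.

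The widest regions differed in how their folds compared. The widest, chr38:23001544-23002800 (1257 bases), had relative folds of 1.38 in cerebellum and 0.622 in ovary, with summits 114 bases apart. The next, chr2:28988075-28989315 (1241 bases), held 2 cerebellum peaks and 1 ovary peak, with relative folds of 0.741 and 0.913. The third, chr1:51969112-51970283 (1172 bases), had relative folds of 1.25 and 0.841 and summits 835 bases apart, so its cerebellum and ovary signals were highest at different places.

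At the edge of the rule, the regions kept with the lowest −log10 q-value in either list were chr15:59408423-59408781 and chr23:8806588-8806975. Both had a cerebellum fold of 1.81, or 0.268 times the list median, at a −log10 q-value of 1.04, while the ovary fold was 8.42 in the former and 4.36 in the latter. Just outside it, the region chr22:1749772-1750413 had relative folds of 0.599 in cerebellum and 0.716 in ovary but also a spleen peak with a fold of 2.11 and a −log10 q-value of 1.03. The region chr6:39036102-39036470, with relative folds of 0.560 and 0.527, was left out for a liver peak with a fold of 2.06 and a −log10 q-value of 1.34. Membership at the edge therefore turned on single peaks with −log10 q-values of 1.03 to 1.34.

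Regions of cerebellum and ovary alone lay farther from the regions shared by all tissues than union regions did in general. The distance to the nearest region of all 11 lists had a median of 7363 bases (quartiles 2142 and 21249; order-statistic 95% interval of the median 7133 to 7606). This value depended on the peaks kept: the median was 22789.5 bases with the upper 50% of every list by fold and 16326 bases with cerebellum and ovary alone restricted in that way. In these settings the regions of all 11 lists were also defined by the peaks kept, so the targets of the distance changed as well. Other classes were not measured in these settings. With all peaks, for 14.5% it was 1 kb or less, and for 8.93% it was over 50 kb. Over all autosomal union regions, which include those of all 11 lists, the median was 4297 bases. Between neighbouring regions of all 11 lists it was 1453 bases. Regions of cerebellum alone had a median of 7249 bases (7085 to 7422), whose interval overlaps that of cerebellum and ovary, and regions of ovary alone one of 7972 bases (7787 to 8188). Regions of cerebellum and cerebrum alone lay closer, with a median of 5708 bases (5358 to 6105), and so did those of cerebrum and ovary alone, with 5893.5 bases (5527 to 6400). Regions of kidney and ovary alone had a median of 7206.5 bases (6621 to 7813), whose interval overlaps that of cerebellum and ovary.

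By chromosome, the median distance was larger for regions of cerebellum and ovary alone than for regions of cerebellum alone on 20 of the 38 autosomes, and smaller than for regions of ovary alone on 24. It was larger than for regions of cerebellum and cerebrum alone on 30 of the 38. The distances to shared regions were thus much alike in the regions of both tissues and in those of either tissue alone. The stronger regions were a little farther away. In the lowest of 4 equal groups by the smaller relative fold the median distance was 5712 bases, and in the highest group it was 8501 bases.

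**Figure D4:**
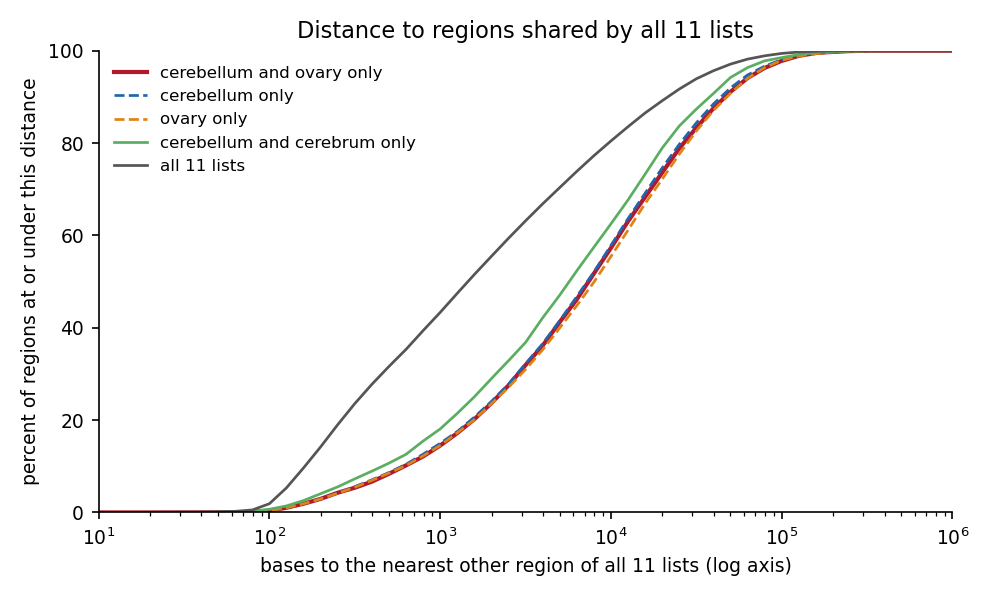
Cumulative percent of regions (y axis) by the distance in bases to the nearest other region of all 11 lists (x axis, log axis), for 5 classes of region. The curves of cerebellum and ovary only, cerebellum only and ovary only lie together (medians 7363, 7249 and 7972 bases), while cerebellum and cerebrum only has a median of 5708 bases.

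The surroundings held fewer peaks than those of union regions in general and about as many as those of regions of either tissue alone. Within a window of 100 kb centred on the region there was a median of 21 other union regions and of 4 regions of all 11 lists. The corresponding medians were 28 and 7 over all union regions 35 and 12 around regions of all 11 lists, and 22 and 4 both around regions of cerebellum alone and around regions of ovary alone. The nearest union region lay a median of 1256 bases away, against 1236 bases for regions of cerebellum alone and 1222 bases for regions of ovary alone. It was a region of cerebellum alone in 12.2%, of ovary alone in 6.58% and of both alone in 6.06%. Over all union regions these classes were the nearest neighbour in 7.50%, 5.72% and 3.15%. The nearest neighbour was a region of both alone in 5.16% of regions of cerebellum alone and in 3.62% of regions of ovary alone.

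Most of the regions had no other of their kind within 10 kb. The nearest region of the same kind was a median of 35087 bases away (quartiles 12662 and 84793), and 21.0% had another within 10 kb. The latter share was 8.61% with equal list sizes and 0.690% with the 290 regions of the restricted cerebellum and ovary lists, where fewer regions are left to be neighbours. In other classes, each against its own kind, it was 41.5% for cerebellum alone and 30.5% for ovary alone. It was 10.1% for cerebellum and cerebrum alone and 7.24% for kidney and ovary alone, so classes with more regions had a higher share. Chained at 10 kb, they formed 12915 groups, of which 11511 held a single region (79.0% of the regions). Groups of 3 or more numbered 205 and held 656 regions (4.50%), and the 5 largest groups held 5 regions each. The tightest of these lay at chr10:66207782-66214699 and spanned 6.92 kb. Regions of cerebellum and ovary alone had a mean of 1.12 others of their kind within the 100 kb around them, against 0.797 around all union regions, 1.01 around regions of cerebellum alone and 0.739 around regions of ovary alone.

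In fixed windows of 100 kb, 42.2% of the 22054 windows held at least 1 such region, and the mean was 0.660 per window. The variance over the windows was 1.43 times the mean. Over the classes compared this ratio was higher the more regions a class had, and it was 1.96 for cerebellum alone, 1.54 for ovary alone, 1.21 for cerebellum and cerebrum alone and 7.81 for all 11 lists. The fullest window, chr12:70700001-70800000, held 8 of its 38 union regions, and 11 windows held 7. The 8 regions were 261 to 612 bases wide, and their relative folds ran from 0.467 to 1.13 in cerebellum and from 0.570 to 0.993 in ovary. They lay as 1 run of 4 and 2 pairs, with the nearest of their kind 125 to 3204 bases away. The window also held 9 regions of all 11 lists.

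All 38 autosomes carried such regions. Their share of the union regions of a chromosome had a median of 3.37% and ran from 1.76% on chromosome 9 (95% Wilson interval 1.57% to 1.96%) to 4.70% on chromosome 29 (4.21% to 5.25%). Chromosome 20 had 2.13% and chromosome 30 had 2.26%, while chromosome 19 had 4.58% and chromosome 36 had 4.50%. The share was lower on chromosomes dense in peaks and the number per Mb somewhat higher, with a Spearman's rho of −0.619 between the share and the union regions per Mb over the 38 chromosomes, which share all libraries, and one of 0.373 between such regions per Mb and union regions per Mb. The share went with that of regions of cerebellum alone (rho 0.850) and of ovary alone (rho 0.742) over the same chromosomes. All of these shares have the same denominator, so the coefficients describe and carry no test.

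Per Mb of chromosome, measured up to the last peak, the density ran from 4.48 regions on chromosome 32 to 9.51 on chromosome 37, with a median of 6.73. Chromosome 36 had 9.48 and chromosome 35 had 8.41. The median relative fold hardly varied, from 0.685 to 0.740 in cerebellum and from 0.681 to 0.744 in ovary over the 38 chromosomes, and the median width varied from 275 to 296 bases. The chromosomes thus differed in how many regions they held and little in how strong or wide these were.

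**Figure D5:**
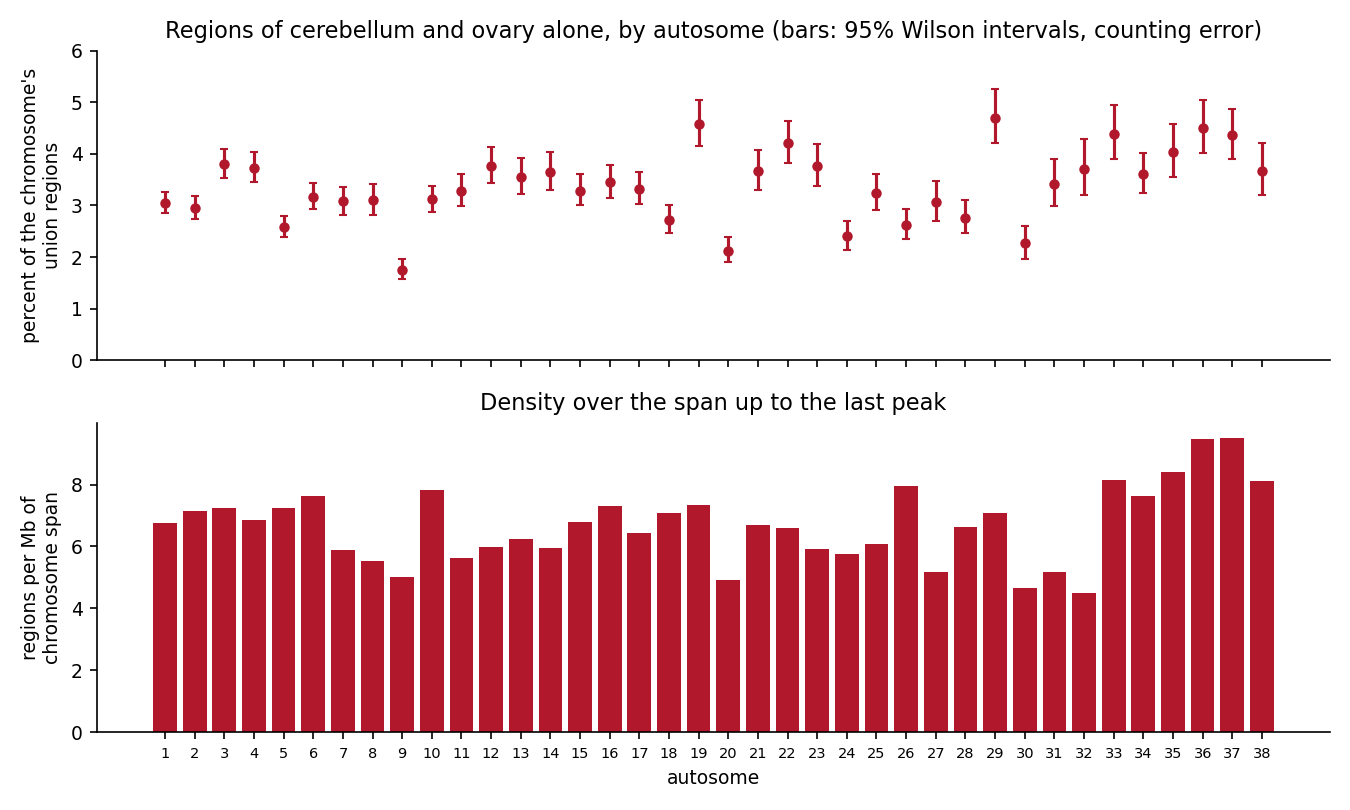
Regions of cerebellum and ovary alone on each autosome (x axis), as percent of the union regions of that chromosome with 95% Wilson intervals for counting error (top) and per Mb of chromosome up to its last peak (bottom). The share is lowest on chromosome 9 (1.76%) and highest on chromosome 29 (4.70%).

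The dog autosomes are acrocentric, with the centromere at one end. Along the chromosomes, in 10 equal parts up to the last peak, 10.4% of the regions lay in the first part (95% Wilson interval 9.96% to 11.0%) and 13.5% in the last (13.0% to 14.1%). All union regions had 11.6% and 14.7% there, and regions of all 11 lists 13.5% and 20.0%. Regions of cerebellum alone had 12.2% and regions of ovary alone 11.8% in the last part. As a share of the union regions of each part, the regions of cerebellum and ovary alone varied from 2.91% in the first to 3.58% in the ninth, and were 2.96% in the last, so no part of the chromosomes was without them or held most of them.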

How the data were processed

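MBD-seq peak lists were analysed, 1 per tissue, each shared by the 2 MBD libraries of that tissue in the labels. The lists have no header. Their columns were taken in narrow-peak order. The aligner, the caller, the filters and how libraries were combined are not given in the sources used here, and the build is CanFam3.1 per the submitters' processing notes. Per the format, the authors deposited a score, a fold (signal value, read as a ratio to a control that is not named), a −log10 q-value and a summit offset per peak. All of these are the authors' values. The score was not used, and no filter on low values was applied.

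Peaks on 38 autosomes were merged at an overlap of 1 base. The strongest peak stood for a list in a region, and its fold was divided by the median of its whole list. Distances are bases between region edges. Medians have order-statistic 95% intervals and shares Wilson intervals, for counting error only. With 1 list per tissue no test over samples was possible. The regions, classes and measures were chosen with earlier results of these data known. Named regions were the 10 with the highest smaller relative fold, the 3 widest and the fullest 100 kb window. Also named were the 2 kept with the lowest −log10 q-value in either list. The last 2 were those left out for a peak of 1 other list with the lowest −log10 q-value. Genes, CpG content and sequences were not analysed here, since the gene table at hand is of another assembly. Alternatives were stricter or equal list lengths, other overlap rules, mean for highest fold and leaving out each other list. Merging and distances were tested on simulated lists. Python 3.11.15, numpy 2.4.6, pandas 2.3.3, scipy 1.17.1 and matplotlib 3.10.9 were used.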

Additional observations from a re-analysis of the deposited data

Results flagged for a closer look

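Chromosome X lay outside the rule, which keeps to autosomes, but showed the same kind of region. Of its 21367 union regions, 892 had a peak in cerebellum and ovary alone, or 4.17% (95% Wilson interval 3.91% to 4.45%), against 3.23% on autosomes. They were 39.4% of the 2265 X regions found in exactly 2 lists, and the next pair there, cerebellum and cerebrum, had 354. Their median relative fold was 0.715 in cerebellum and 0.708 in ovary, and their median width 281 bases, close to the autosomal values. The ovary libraries are both labelled female and the cerebellum libraries female and male.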

How the results depend on the processing

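The number of regions moved by over 1.5 times under 3 of 15 alternatives. With all peaks the regions were 3.23% of the union regions, and percents below are of the union regions of the setting. They numbered 7914 (2.96%) with the upper 50% of every list by fold and 4794 (1.27%) with equal list sizes. With cerebellum and ovary in the upper 50% and the other lists whole there were 290 (0.0761%). In the last, the pair ranked 28 among the pairs of tissues; it ranked 1 in the other 14. By construction these settings keep fewer peaks, and the regions of all lists were defined anew from the peaks kept. Leaving out the cerebrum list gave 20795 regions and leaving out the kidney list 18812. Over the alternatives, the median relative fold lay between 0.712 and 1.23 in cerebellum and between 0.715 and 1.19 in ovary, the median width between 286 and 351 bases, the distance to regions of all lists between 6734 and 22789.5 bases (the latter with the upper 50% of every list), the share with another such region within 10 kb between 0.690% (cerebellum and ovary restricted) and 28.4%, and the share in the last 10% of chromosomes between 11.7% and 15.6%. No list could be split by library, so leaving out an animal was not possible. A region without a peak in a list may be methylated below detection, and read depth is unknown.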

Other observations

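When another list joined cerebellum and ovary, it was most often cerebrum or kidney. Of the 13445 autosomal regions in these lists and exactly 1 other, 6081 (45.2%) had a cerebrum peak and 4211 (31.3%) a kidney peak. Spleen followed with 910, liver with 785, lung with 565, mammary gland with 424, pancreas with 196, stomach with 177 and colon with 96. As a share of the regions of the joining list, the counts were 2.17% for cerebrum, 1.51% for kidney, 0.377% for spleen and 0.300% for liver. The lists differ in length and peak width, and the part of these in the counts was not tested. The joining peak was weak, with a median relative fold of 0.649 in cerebrum and 0.667 in kidney.

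Cerebellum, cerebrum, kidney and ovary were also the most frequent of the 330 sets of 4 tissues among regions in exactly 4 lists. They had 4659 regions, against 789 in the next set, which held spleen in place of kidney.

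The opposite pattern was less marked. Of the 24942 regions in exactly 9 lists, 1338 lacked only cerebellum and ovary. This pair ranked first of the 55 there too, just ahead of cerebellum and cerebrum with 1305, and the median pair had 380.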
